A study of Mus musculus with 29 samples.

Results

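The genes examined were 10 that encode transcription factors of the gonad's somatic cells, measured in the mouse ovary: Wt1, Gata4, Nr5a1, Lhx9, Emx2, Foxl2, Runx1, Irx3, Nr5a2 and Nr0b1. They were taken by symbol from a table of 51912 genes, and all 10 were found. RNA was sequenced from papain-dissociated ovary cells of wild-type mice (Cdkn1b +/+) and of mice homozygous for a null Cdkn1b (Cdkn1b -/-, called Cdkn1b-null here). Cdkn1b encodes p27Kip1, an inhibitor of cyclin-dependent kinases, and the study asked how control of the cell cycle bears on ovarian development. The 4 ages were 2 embryonic ones, days 13.5 (E13.5) and 18.5 (E18.5), then day 8 after birth (PND8) and the adult at 12 weeks (12wk). Each wild-type group held 4 samples. The Cdkn1b-null groups held 4 samples at E18.5 and 3 at the other ages, which gave 29 samples in 8 groups. The strain, the number of mice behind a sample and the cell types in which the null acts are not given in the sources used here. No label ties samples to separate animals or litters, so the p-values measure the spread between these samples.

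The somatic lineages of the ovary arise from the coelomic epithelium of the genital ridge. WT1, a zinc finger protein, GATA4, the orphan nuclear receptor NR5A1 (SF-1) and the homeobox proteins LHX9 and EMX2 are needed to build that ridge before the sexes diverge. In the ovary, supporting cells become granulosa cells: the forkhead protein FOXL2 maintains their female identity, RUNX1 acts with it in the fetal supporting lineage, and the Iroquois protein IRX3 marks pregranulosa cells as follicles form. NR5A2 (LRH-1) is a granulosa cell receptor required for ovulation and luteinization, and NR0B1 (DAX1) represses NR5A-driven transcription.

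The start-site sequences of these genes were searched for short motifs of some of the factor families, and a match does not show binding. RefSeq windows of 300 bases (250 before and 50 after a start, GRCm38.p6) were listed for 7 of the 10 genes, with 9 windows in all. Exact matches to 5 motifs were sought on both strands. NR5A receptors were given the letters AAGGTCA, and GATA factors were given AGATAA. For forkhead proteins the letters were GTAAACA, for RUNX proteins they were TGTGGT, and for WT1 the motif was GCGGGGGCG. None of the matches overlapped another, and 4 of the 9 windows held a match. The stretches with a match before the start are shown, in the direction of transcription, with the match in capitals. The 2 GATA matches of Nr5a2 read TTATCT, the motif on the opposite strand, and are shown because Nr5a2 had the largest change of the 10 genes. They begin 217 and 200 bases before the start. The Nr0b1 stretch holds a RUNX match, and the Runx1 stretch, at an internal start, holds a WT1 match.
Nr5a2, chr1:136960449-136960698, minus strand: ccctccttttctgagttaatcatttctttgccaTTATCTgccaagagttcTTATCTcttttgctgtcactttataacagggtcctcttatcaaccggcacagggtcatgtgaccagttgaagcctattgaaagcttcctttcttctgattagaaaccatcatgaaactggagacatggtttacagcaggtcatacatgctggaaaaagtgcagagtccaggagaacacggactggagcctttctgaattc
Nr0b1, chrX:86191525-86191624, plus strand: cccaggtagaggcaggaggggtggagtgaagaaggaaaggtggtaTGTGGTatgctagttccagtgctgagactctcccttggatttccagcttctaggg
Runx1, chr16:92697430-92697529, minus strand: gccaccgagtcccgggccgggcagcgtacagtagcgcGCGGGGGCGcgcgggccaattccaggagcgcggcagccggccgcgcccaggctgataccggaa
Of all 32851 windows in the table, 11.2% held the GATA letters, 16.8% the RUNX letters and 2.91% the WT1 letters. The NR5A letters were in 4.72% and the forkhead letters in 3.65%. The share of all windows with any of the 5 motifs was not counted, so the 4 of 9 windows have no background beside them. The upstream window of Runx1 held 2 further RUNX matches, 28 and 36 bases after its start. The windows of Foxl2, Lhx9, Emx2 and Irx3 and the internal one of Nr5a2 held none of the 5 motifs, which says only that these letters are absent there.

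Levels are given as CPM, counts per 1000000 counts of a library, on library sizes scaled by edgeR's TMM method, which corrects totals for differences in RNA make-up. Library totals ran from 14095601 to 24855045 counts at E13.5, from 17331811 to 22769289 at E18.5 and from 24072433 to 48213177 after birth. The depth puts 3 counts at 0.0622 to 0.213 CPM. The lowest level of any of the 10 genes was 3.36 CPM, for Nr5a2 in a Cdkn1b-null E13.5 library, so all 10 were measured in every library and passed the low-count filter in every comparison. In bulk samples such as these, fewer cells of a type and less RNA per cell cannot be told apart. The targeted gene was lower in the Cdkn1b-null libraries at each age, with no overlap between groups, by means of 4.49 against 22.8 CPM at E13.5 and 12.7 against 103 CPM at E18.5. After birth more of it was left, with 71.7 against 149 CPM at PND8 and 51.2 against 183 CPM at 12wk, and the difference at 12wk did not pass the test (BH-adjusted edgeR p 0.211). One wild-type E13.5 library, replicate 3, had 16.9% of its counts in haemoglobin genes, against 0.644% to 1.01% in the other 6 of that age.

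**Figure D1:**
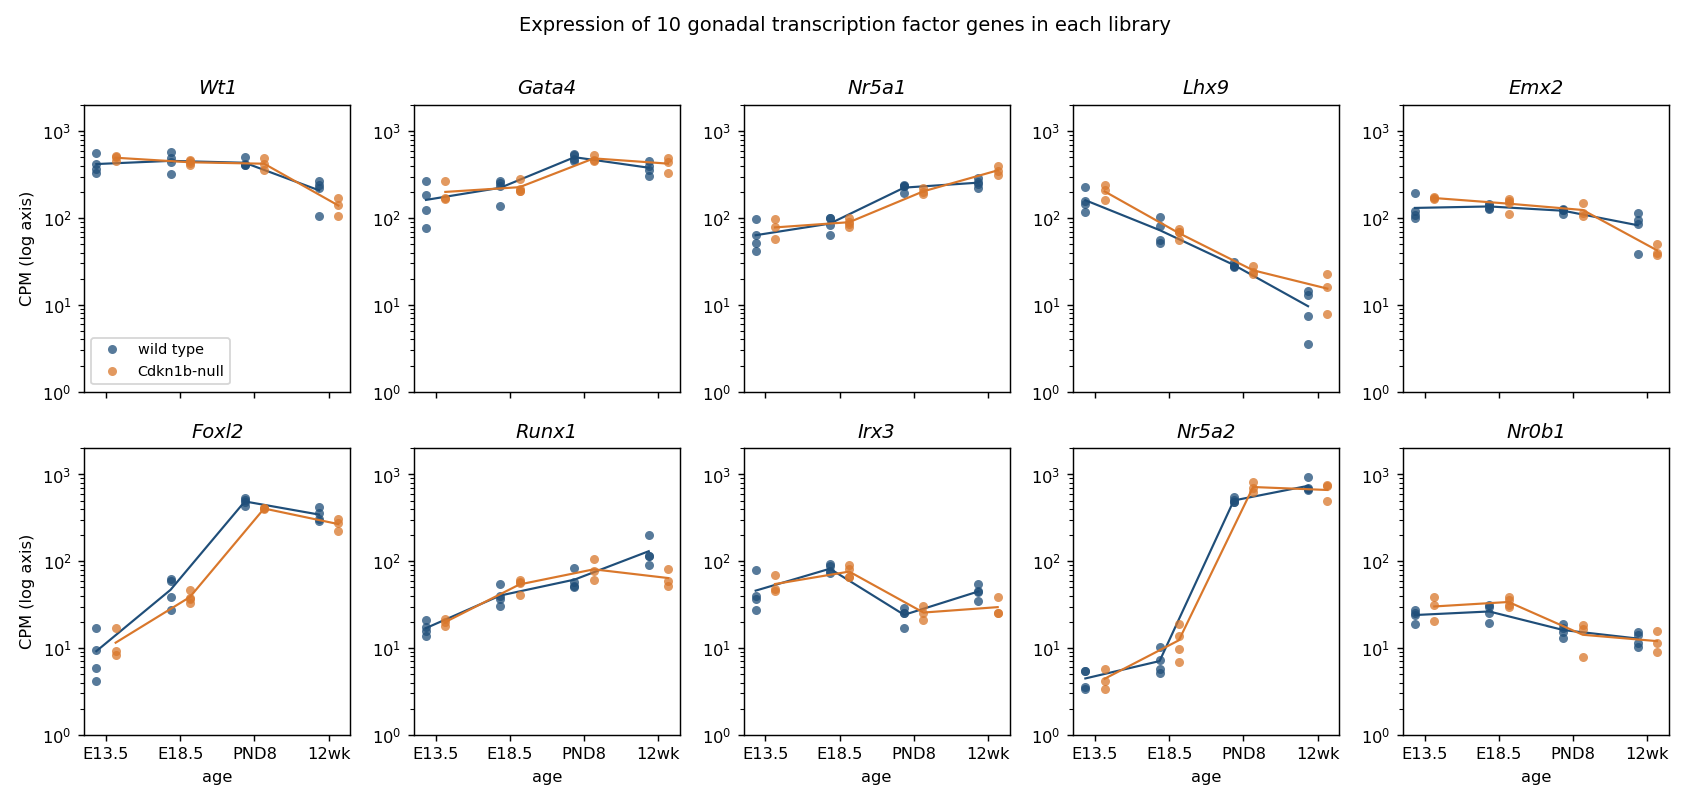
CPM of each gene (log axis) by age in wild-type (blue) and Cdkn1b-null (orange) ovaries; points are libraries and lines join group means. Nr5a2 goes from at most 18.9 CPM before birth to at least 476 CPM after it, and the Lhx9 means decline at each age in both genotypes.

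Between E18.5 and PND8 the 10 genes were re-ordered, and this step held the largest changes. In wild type 5 rose (Nr5a2, Foxl2, Nr5a1, Gata4 and Runx1), 4 fell (Irx3, Lhx9, Nr0b1 and Emx2) and Wt1 did not pass the test. That is 9 of 10 called at an adjusted p under 0.05, in a comparison where 74.6% of the 17421 genes tested were called, 37.6% higher and 36.9% lower. From E13.5 to E18.5, 4 of 10 were called where 34% of genes were (16.6% higher, 17.5% lower), with 3 higher (Foxl2, Runx1, Irx3) and Lhx9 lower. From PND8 to 12wk, 7 of 10 were called where 30.5% of genes were (16.1% higher, 14.3% lower), with Runx1, Irx3, Nr5a2 and Nr5a1 higher and Lhx9, Wt1 and Foxl2 lower. The median log2 fold change of the 10 genes over these 3 steps was 0.44, 0.17 and -0.27, against 0.01, 0.01 and -0.01 over all genes tested. Each BH-adjusted edgeR p in the text is from edgeR's quasi-likelihood F test, adjusted by the Benjamini-Hochberg method over all genes tested.

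Among the factors that build the genital ridge, Lhx9 declined throughout, while Wt1 had no called change until the adult. Lhx9, a LIM homeobox gene, measured 144, 226, 156 and 117 CPM in the 4 wild-type libraries at E13.5. It measured 51.9, 56.3, 80.7 and 102 CPM at E18.5 and 28.2, 28.4, 27.4 and 31.4 CPM at PND8. At 12wk it stood at 13.1, 3.5, 14.6 and 7.4 CPM. No 2 consecutive ages overlapped, and the mean fell 16.7-fold from E13.5 to 12wk. Each step passed the test, with log2 fold changes of -1.16 (SE 0.25), -1.43 (SE 0.20) and -1.50 (SE 0.37) and BH-adjusted edgeR p of 0.00535, 9.81e-05 and 0.015. The 5 mesonephric and kidney epithelium markers summed to 33.8 to 150 CPM at E13.5 and 8 to 12.6 CPM at E18.5 in wild type. All 5 were called lower (median log2 fold change -5.23), where 17.5% of all genes tested were. The part of mesonephric or kidney cells in the E13.5 values of the 10 genes was not tested.

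Wt1 ranged from 322 to 574 CPM over the 12 wild-type libraries of the first 3 ages, and neither step between them passed the test. At 12wk it was 239, 107, 270 and 220 CPM, below every earlier library (log2 fold change -0.97, SE 0.25, BH-adjusted edgeR p 0.0175). Emx2, which encodes a homeobox factor of the urogenital tract, stayed between 100 and 193 CPM through PND8. Its fall from E18.5 to PND8 was small (log2 fold change -0.26, SE 0.09, BH-adjusted edgeR p 0.0189), and of the 8 fits that each left out 1 library the call held only without E18.5 replicate 1 or 2. It was also lost without the low-count filter and with all 8 groups in 1 fit. The Emx2 values carry a further limit: the antisense gene Emx2os shares 264 exon bases with it, and its counts came to 8.15% to 51.1% of those of Emx2.

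Gata4 and Nr5a1, which encode partners in the activation of steroidogenic and supporting cell genes, both rose around birth. Wild-type Gata4 was 233, 139, 254 and 268 CPM at E18.5 and 478, 528, 553 and 455 CPM at PND8, a 2.12-fold rise with no overlap (log2 fold change 1.08, SE 0.18, BH-adjusted edgeR p 0.000263). Nr5a1 was 83.4, 63.4, 99 and 100 CPM at E18.5 and 195, 232, 239 and 232 CPM at PND8 (log2 fold change 1.29, SE 0.14, BH-adjusted edgeR p 1.43e-05). After PND8 Gata4 did not pass the test (log2 fold change -0.32, SE 0.12, BH-adjusted edgeR p 0.0755). The further rise of Nr5a1 to 12wk was 1.21-fold (BH-adjusted edgeR p 0.0415), and its call held without 12wk replicate 4 but in none of the other 7 fits that left out 1 library.

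Of the supporting cell genes, Foxl2 had the widest range. In wild type it measured 5.9, 17.1, 9.61 and 4.2 CPM at E13.5, then 27.4, 61.7, 38.7 and 59.8 CPM at E18.5. At PND8 it reached 439, 509, 533 and 476 CPM, and at 12wk it was 310, 293, 418 and 360 CPM. The ages did not overlap, with PND8 highest, 53.1-fold above E13.5 by the means. The 3 steps had log2 fold changes of 2.34 (SE 0.44), 3.28 (SE 0.26) and -0.41 (SE 0.12), with BH-adjusted edgeR p of 0.00271, 1.46e-06 and 0.0295. The last of these calls was lost with all groups in 1 fit, and without 12wk replicate 1 or 2 or PND8 replicate 2, 3 or 4. Foxl2os, an antisense gene, shares 12 exon bases with Foxl2, and its counts came to 0.487% to 33% of those of Foxl2.

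Runx1, by contrast, was highest in the adult wild-type ovary. Its wild-type means were 17 ± 3.14 (SD, n = 4), 40.3 ± 9.91, 61.4 ± 15.4 and 131 ± 49.7 CPM at the 4 ages. The first step had a log2 fold change of 1.23 (SE 0.20) and the last one of 1.18 (SE 0.27), with BH-adjusted edgeR p of 0.00112 and 0.0109 and no overlap in either. The middle step was smaller and the libraries overlapped (log2 fold change 0.51, SE 0.21, BH-adjusted edgeR p 0.0455). Its call was lost without PND8 replicate 3 or without E18.5 replicate 1, 2 or 3 and with library totals only. The 4 markers of blood-derived immune cells summed to 22.5 to 38.1 CPM at PND8 and 176 to 245 CPM at 12wk in wild type. All 4 were called higher in that step, where 16.1% of genes tested were. From E18.5 to PND8, 3 of the 4 were called lower, where 36.9% of genes were. The part of immune cells in the Runx1 values was not tested.

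Irx3 peaked at E18.5. In wild type it measured 76.2, 73.1, 91.8 and 87 CPM there, against 16.8, 25.4, 25.3 and 29 CPM at PND8 and 45.7, 43.7, 55.2 and 35 CPM at 12wk. The fall after E18.5 (log2 fold change -1.86, SE 0.16, BH-adjusted edgeR p 2.59e-06) and the partial return by 12wk (0.98, SE 0.17, adjusted p 0.00344) both left no overlap. The rise from E13.5 to E18.5 (0.83, SE 0.28, BH-adjusted edgeR p 0.0439) overlapped between ages. Its call was lost without the low-count filter, and of the 8 fits that left out 1 library it held only without E13.5 replicate 2. Irx3os, an antisense gene, shares 124 exon bases with Irx3, and its counts came to 1.86% to 8.59% of those of Irx3.

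The pair of nuclear receptors that bind the same DNA element, NR5A1 and NR5A2, changed places around birth. Nr5a2 measured 3.4 to 5.45 CPM in wild type at E13.5 and 5.14, 5.76, 7.19 and 10.2 CPM at E18.5. At PND8 it was 543, 476, 511 and 477 CPM, a 66.4-fold rise, and at 12wk 654, 933, 691 and 681 CPM. No library of E18.5 came near those of PND8 (log2 fold change 6.05, SE 0.23, BH-adjusted edgeR p 3.37e-08). The step to 12wk was 1.56-fold (BH-adjusted edgeR p 0.00613), and lost its call with all groups in 1 fit. Per length, the ratio of Nr5a2 to Nr5a1 was 0.0556 ± 0.0211 and 0.0587 ± 0.0129 (SD, n = 4) before birth and 1.62 ± 0.256 and 2.1 ± 0.452 at PND8 and 12wk.

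Nr0b1, the X-linked gene of an inhibitor of NR5A1, went the other way. It ranged from 18.9 to 31.6 CPM over the 8 wild-type libraries before birth and from 10.3 to 19 CPM over the 8 after it. The fall from E18.5 to PND8 had a log2 fold change of -0.81 (SE 0.17, BH-adjusted edgeR p 0.00168).

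**Figure D2:**
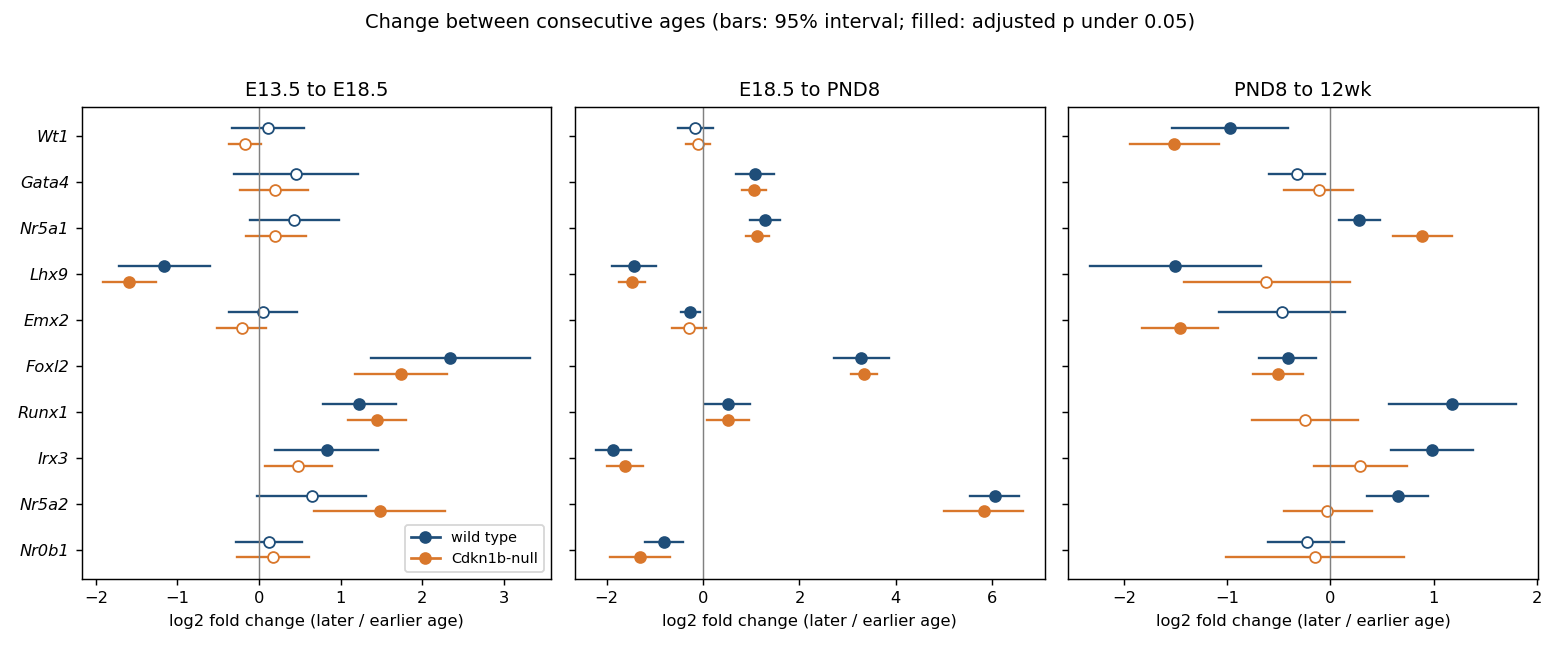
Log2 fold change between consecutive ages in wild type (blue) and Cdkn1b-null (orange), with 95% intervals; filled points had an adjusted p under 0.05. The intervals of the genotypes overlap for all 10 genes in the 2 earlier steps, and in the last step those of Runx1 (0.57 to 1.80 in wild type, -0.76 to 0.27 in Cdkn1b-null), Nr5a1 and Emx2 lie apart.

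Levels of different genes can be compared only per length, for which counts were divided by the merged exon length of GENCODE M21 (GRCm38) and scaled to a sum of 1000000 in each library (TPM). Before birth Wt1 was first and Nr5a2 last in both genotypes. At E13.5 wild-type Wt1 averaged 188 ± 76.5 TPM (SD, n = 4), but the ranges of the first 7 genes down to Nr0b1 each overlapped that of the next. Foxl2, Runx1 and Nr5a2 followed at 7.59, 3.89 and 2 TPM. The lowest wild-type E13.5 TPM of each of the first 7 genes was in replicate 3, with 16.9% of its counts in haemoglobin genes. Unlike the TMM-scaled CPM, TPM is not corrected for such differences in RNA make-up. At PND8 the wild-type order was Foxl2 (430 ± 18.8 TPM), Gata4 (369 ± 23.9) and Nr5a2 (245 ± 30.2), and neither Foxl2 and Gata4 nor Gata4 and Nr5a2 overlapped. At 12wk Nr5a2 (388 ± 46), Foxl2 (331 ± 61.2) and Gata4 (304 ± 54.3) overlapped one with the next. Lhx9 was last at both postnatal ages, at 3.18 ± 1.66 TPM in the adult.

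The sum of the 10 genes in wild type was 608 ± 289 and 786 ± 163 TPM at the embryonic ages and 1586 ± 77.3 and 1513 ± 160 TPM (SD, n = 4) at the postnatal ones. The lowest E13.5 sum, 300 TPM, was that of replicate 3, the library rich in haemoglobin counts. Within it, the mean share of Wt1 and Emx2 went from 31.5% and 19.9% at E13.5 to 6.86% and 5.59% at 12wk. Over the same ages Nr5a2 went from 0.371% to 26.1% and Foxl2 from 1.23% to 21.7%. The share of Gata4 stayed between 18.1% and 23.3%.

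**Figure D3:**
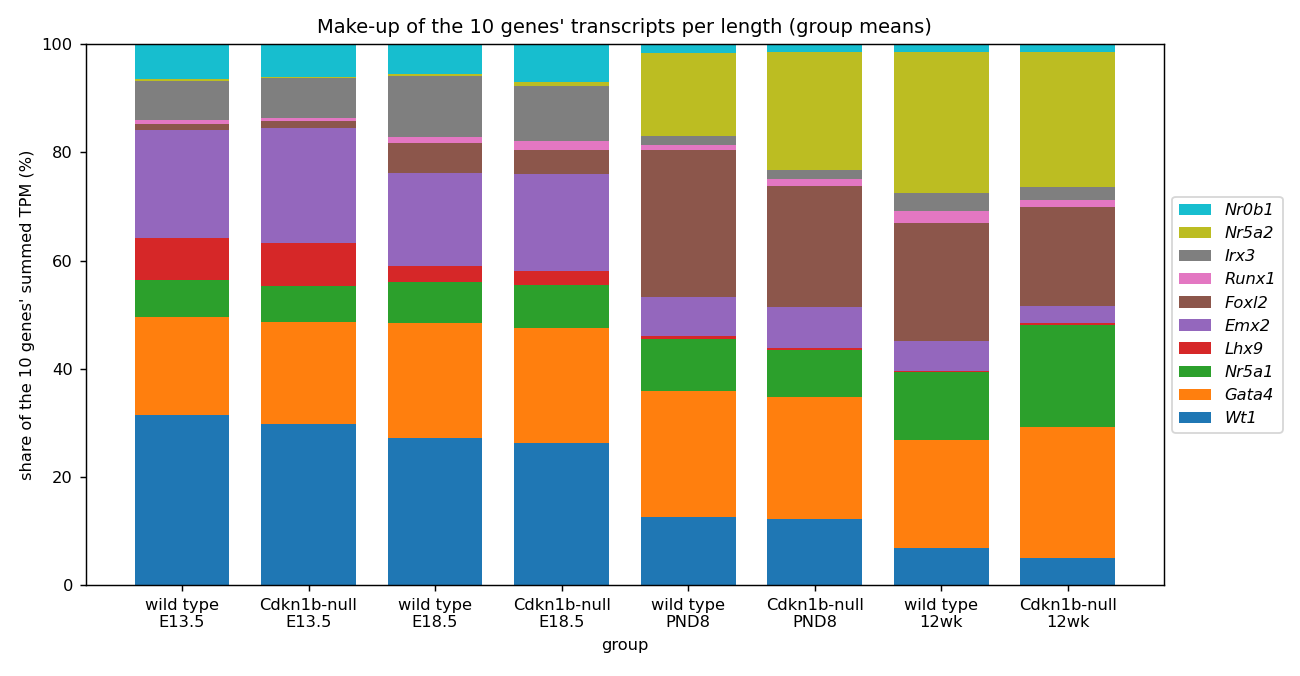
Mean share (%) of each gene in the 10 genes' summed TPM, by group. Wt1, Gata4 and Emx2 fill most of the bar before birth, and Foxl2, Gata4 and Nr5a2 most of it after birth, in both genotypes.

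No gene of the 10 passed the test for a genotype difference at any age. At E13.5 and E18.5 that was 0 of 10 where 0.00606% of 16508 and 4.99% of 16322 genes tested were called. At PND8 and 12wk it was 0 of 10 where 0.349% of 17785 and 0.0115% of 17396 were. At an unadjusted p under 0.05 in edgeR the counts were 0, 2, 2 and 5 of 10 at the 4 ages, where 3.49%, 22.1%, 15% and 9.63% of all genes tested passed. DESeq2 called 0, 0, 2 and 2 of the 10. At E13.5 and E18.5 the groups overlapped for all 10 genes, where 3.84% and 14.5% of genes tested did not overlap. The median log2 fold change of the 10 genes, Cdkn1b-null over wild type, was 0.26, 0.01, -0.05 and -0.27 at the 4 ages, against -0.01, -0.04, 0.00 and 0.00 over all genes tested. At E18.5 the intervals were narrow for several genes: the 95% interval of the log2 fold change ran from -0.40 to 0.24 for Wt1, from -0.29 to 0.34 for Nr5a1 and from -0.41 to 0.40 for Gata4. At E13.5 the interval of Foxl2 was -0.81 to 1.38, which holds a 2-fold rise.

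**Figure D4:**
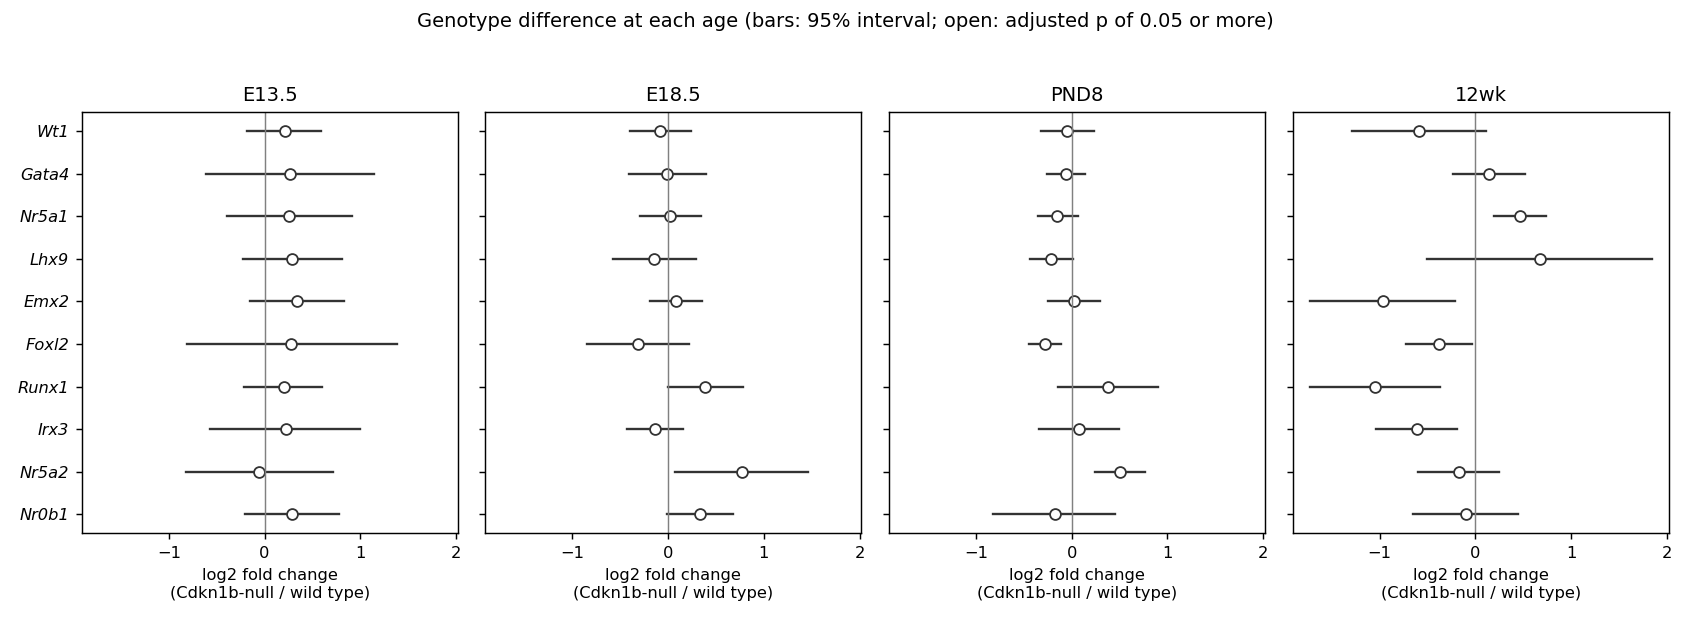
Log2 fold change of Cdkn1b-null over wild type at each age for the 10 genes, with 95% intervals; all points are open because none had an adjusted p under 0.05. The intervals of Nr5a2 and, narrowly, Runx1 at E18.5, of Nr5a2 and Foxl2 at PND8 and of Runx1, Nr5a1, Emx2, Irx3 and Foxl2 at 12wk lie to 1 side of 0.

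At PND8 the groups did not overlap for 2 of the 10 genes, where 14.7% of all genes tested did not. Nr5a2 measured 628, 698 and 825 CPM in the Cdkn1b-null libraries against 476 to 543 CPM in wild type (log2 fold change 0.50, SE 0.12, BH-adjusted edgeR p 0.117). Foxl2 measured 410, 395 and 411 CPM against 439 to 533 CPM (log2 fold change -0.28, SE 0.08, BH-adjusted edgeR p 0.156). These genes thus lay on opposite sides of wild type, and per length the ratio of Nr5a2 to Foxl2 was 0.976 ± 0.13 (SD, n = 3) against 0.57 ± 0.0766 (n = 4). Under DESeq2 both passed, with adjusted p of 0.00206 for Nr5a2 and 0.00709 for Foxl2, and Nr5a2 also passed without the low-count filter (BH-adjusted edgeR p 0.037). The summed granulosa or supporting cell markers (6 genes) were 3155 to 3350 CPM in Cdkn1b-null and 2369 to 3131 CPM in wild type. That sum mixes both directions, since 5 of the 6 lay above wild type and Amh below it. Kitl, the ligand that granulosa cells present to oocytes, was the 1 of the 6 called (log2 fold change 0.87, SE 0.14, BH-adjusted edgeR p 0.0473), and with all groups in 1 fit no gene was called at this age. Amh, a hormone of growing follicles, was 552 to 626 CPM in Cdkn1b-null against 695 to 1005 CPM, with no overlap (log2 fold change -0.48, SE 0.12, BH-adjusted edgeR p 0.143). All 5 stroma markers lay below wild type, with a median log2 fold change of -0.67, and 1 of them, Pdgfra, was called (-0.86, SE 0.14, BH-adjusted edgeR p 0.0473). Their summed levels overlapped, at 2488 to 4762 CPM in Cdkn1b-null and 3395 to 4868 CPM in wild type. The theca or steroid cell markers summed to 1382 to 2124 CPM against 1000 to 1299 CPM, with no overlap. Of these 4 markers 2 lay above wild type and 2 below it (median log2 fold change 0.17). Hsd3b1 made up most of that sum, at 1362 to 2029 CPM in Cdkn1b-null and 977 to 1264 CPM in wild type. The part of these cells in the values of Nr5a2 and Foxl2 was not tested.

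At 12wk the groups did not overlap for 3 of the 10 genes, Runx1, Nr5a1 and Foxl2, where 9.69% of all genes tested did not. Runx1 measured 59.3, 81 and 51.9 CPM in the Cdkn1b-null libraries and 91.1, 114, 114 and 203 CPM in wild type (log2 fold change -1.05, SE 0.29, BH-adjusted edgeR p 0.397). Replicate 4 is the high wild-type library, and the log2 fold change was -0.73 without it. Nr5a1 measured 311 to 402 CPM over the 3 Cdkn1b-null libraries against 289, 250, 261 and 225 CPM in wild type (log2 fold change 0.47, SE 0.12, BH-adjusted edgeR p 0.37). Under DESeq2 both passed, with adjusted p of 0.0265 for Runx1 and 0.032 for Nr5a1. Foxl2 was 273, 307 and 224 CPM against 293 to 418 CPM (log2 fold change -0.38, SE 0.15, BH-adjusted edgeR p 0.485). With library sizes scaled over all 29 samples, as printed here, its Cdkn1b-null replicate 3 lay above wild-type replicate 2, while scaled within the age it did not.

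Markers of other cells were read beside these adult values. RUNX1 is also a blood lineage factor, and the 4 immune markers summed to 176 to 245 CPM in wild type and 172 to 279 CPM in Cdkn1b-null, with the ranges overlapping. The 5 red cell markers did not overlap, at 83.6 to 159 CPM in wild type and 221 to 799 CPM in Cdkn1b-null. Of these, 4 were tested, and all 4 lay above wild type at an unadjusted p under 0.05 in edgeR (median log2 fold change 2.00) with none called. The 7 germ cell markers summed to 4.69 to 55 CPM in wild type and to 3.62 to 4.49 CPM in Cdkn1b-null, with no overlap. The part of red cells and germ cells in the values was not tested. The summed granulosa markers overlapped, at 2822 to 4821 CPM in wild type and 1854 to 4163 CPM in Cdkn1b-null. Of these 6 markers, 5 lay below wild type and 1 above it (median log2 fold change -0.42). At an unadjusted p under 0.05 in edgeR 3 of the 6 passed, where 9.63% of all genes tested did, and none was called. The part of granulosa cells in the values was not tested. The sums of the 4 theca or steroid cell markers overlapped as well, at 2445 to 6513 and 3988 to 4587 CPM.

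Emx2 and Wt1 were also lower in Cdkn1b-null means at 12wk without passing the test. Emx2 was 39.9, 50.5 and 37.2 CPM against 85.4, 38.4, 113 and 94.1 CPM in wild type (log2 fold change -0.97, SE 0.33, BH-adjusted edgeR p 0.445). Wt1 was 107, 171 and 141 CPM against 239, 107, 270 and 220 CPM (log2 fold change -0.59, SE 0.30, BH-adjusted edgeR p 0.581). In both cases wild-type replicate 2 was the only wild-type library within the Cdkn1b-null range, and it also had the lowest Lhx9, at 3.5 CPM. The 4 surface epithelium markers summed to 0.157 CPM in that library and to 38.8, 61 and 39.9 CPM in the other wild-type libraries. In Cdkn1b-null they were 0.384, 91.1 and 88.5 CPM. Cdkn1b-null replicate 1 had the lowest Lhx9 and Wt1 of its group, while Emx2 was lowest in replicate 4, at 37.2 CPM. The part of surface epithelium in the values was not tested. Without wild-type replicate 2 the log2 fold change of Emx2 was -1.22 (BH-adjusted edgeR p 0.0907). Irx3 was lower too, at 25.1, 38.5 and 25.2 CPM in Cdkn1b-null against 45.7, 43.7, 55.2 and 35 CPM in wild type. Its groups overlapped and it did not pass (log2 fold change -0.61, SE 0.18, BH-adjusted edgeR p 0.409).

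Whether the genotype difference itself varied with age was tested by an interaction over all 29 samples. It was called for 0.806% of 20359 genes and for 0 of the 10, and at an unadjusted p under 0.05 for 12.7% of genes and 2 of the 10. Runx1 had the smallest value (BH-adjusted edgeR p 0.0692), with Emx2 next at 0.141. DESeq2 called both, at adjusted p of 0.00632 and 0.0276. In edgeR, Runx1 was called when wild-type 12wk replicate 1 (0.0343) or wild-type PND8 replicate 3 (0.0429) was left out. Emx2 was called without wild-type 12wk replicate 2 (0.00874) and without wild-type E13.5 replicate 2 (0.0353).

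The steps between ages were also tested in Cdkn1b-null ovaries. They called 4, 8 and 4 of the 10 genes, where 30.2%, 77.4% and 29.1% of all genes tested were called. Of all genes tested, 15.8%, 38.9% and 14.8% were called higher and 14.5%, 38.5% and 14.3% lower. Around birth Nr5a2 rose 56.5-fold, Foxl2 10.1-fold, Nr5a1 2.19-fold and Gata4 2.07-fold, and Irx3, Lhx9 and Nr0b1 fell to 0.325, 0.36 and 0.405 of their E18.5 levels. Before birth Nr5a2 already rose, 2.79-fold (log2 fold change 1.48, SE 0.36, BH-adjusted edgeR p 0.0139), to 6.88, 9.66, 18.9 and 13.7 CPM at E18.5. The wild-type step was 0.65 (SE 0.30, BH-adjusted edgeR p 0.12), and the E18.5 genotype difference of 0.77 (SE 0.31) did not pass. After PND8, Emx2 fell in Cdkn1b-null ovaries by 1.46 on the log2 scale (SE 0.16, BH-adjusted edgeR p 0.00152) and Nr5a1 rose by 0.89 (SE 0.12, adjusted p 0.00291). Runx1 (-0.25, SE 0.21, BH-adjusted edgeR p 0.44), Irx3 (0.29, SE 0.19) and Nr5a2 (-0.03, SE 0.18), which rose in wild type, did not pass there. The interaction, which takes the 4 ages together, did not pass in edgeR for any of these genes, while DESeq2 called it for Runx1 and Emx2. No single step was tested between genotypes, so the steps are not shown to differ.

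The 10 factors were set beside genes of their pathway at E18.5, the age with the most genotype calls. These lists were chosen with earlier results of these data known, so the shares called describe them and do not test them. Of 15 genes known as targets of NR5A1, NR5A2, GATA4 or FOXL2, 14 were tested and 4 rose, where 3.32% of all genes tested were called higher. The median log2 fold change of the 14 was 0.29, against -0.04 over all genes tested. Cyp19a1 (aromatase, which makes estrogens) was 1.17 to 3.63 CPM in Cdkn1b-null against 0.146 to 0.674 CPM in wild type (log2 fold change 2.51, SE 0.49, BH-adjusted edgeR p 0.016), from 3 to 13 counts per wild-type library. Hsd17b1, which converts estrone to estradiol, was 3.24 to 5.92 against 0.674 to 1.65 CPM (log2 fold change 2.03, SE 0.32, BH-adjusted edgeR p 0.0059). Inha, the inhibin alpha subunit, was 146, 234, 223 and 300 CPM against 86.3, 112, 98.5 and 105 CPM (log2 fold change 1.14, SE 0.19, BH-adjusted edgeR p 0.00795). Hsd3b1, which makes progestins, was 255 to 344 against 114 to 229 CPM (log2 fold change 0.75, SE 0.19, BH-adjusted edgeR p 0.0478). None of these 4 overlapped between genotypes. Hsd17b1 and Inha also stand in the granulosa marker list and Hsd3b1 in the theca list, so those sums are not separate measurements. The granulosa markers summed to 1377 to 1611 CPM in Cdkn1b-null and 991 to 1398 CPM in wild type. Of the 5 tested, 3 lay above wild type and 2 below it (median log2 fold change 0.35). Kitl made up most of that sum, at 1008 to 1176 CPM in Cdkn1b-null and 687 to 1083 CPM in wild type. The theca or steroid cell markers summed to 279 to 375 against 123 to 249 CPM, with no overlap, and most of that sum was Hsd3b1. The germ cell markers summed to 291 to 601 against 380 to 943 CPM, and the 6 tested all lay below wild type (median log2 fold change -0.62) with none called. The part of these cells in the calls was not tested.

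Of 15 partner and upstream regulators, 14 were tested and 3 fell at E18.5, where 1.67% of all genes tested were called lower; their median log2 fold change was -0.23. These were Tcf21 (log2 fold change -0.78, SE 0.20) and Nr2f2 (-0.52, SE 0.13), which mark stromal cells, and Osr1 (-0.54, SE 0.13), an early urogenital mesoderm gene. Their BH-adjusted edgeR p were 0.0456, 0.0436 and 0.0436. Tcf21 overlapped between genotypes, with wild-type replicate 2 at 23.2 CPM against 20.3 to 26.2 CPM in Cdkn1b-null. None of the 10 ovary-side signalling genes (such as Rspo1, Wnt4 and Fst) and none of the 7 testis-side genes tested was called. Of the ovary-side genes 8 lay below wild type and 2 above it (median log2 fold change -0.23), and all 10 overlapped between genotypes. At an unadjusted p under 0.05 in edgeR 6 of them passed, where 22.1% of all genes tested did. Of the testis-side genes 4 lay below and 3 above (median -0.18), and 2 passed at that level. The 5 stroma markers, which include Tcf21 and Nr2f2, summed to 1466 to 2626 CPM in Cdkn1b-null and 1683 to 3205 CPM in wild type, and their part in the calls was not tested. Leaving out 1 library at a time, Inha and Hsd17b1 were called in all 8 fits and Cyp19a1 in 5 (not without Cdkn1b-null replicate 3 or 4 or wild-type replicate 4). Osr1 was called in 2 of the 8, without wild-type replicate 1 or 2. Hsd3b1, Tcf21 and Nr2f2 were each called in 1 of the 8, without wild-type replicate 1, 2 and 3 respectively. With all groups in 1 fit Cyp19a1, Hsd3b1, Nr2f2 and Osr1 were not called. Without the low-count filter Hsd3b1 and Osr1 were not, and with library totals only Tcf21 was not.

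**Figure D5:**
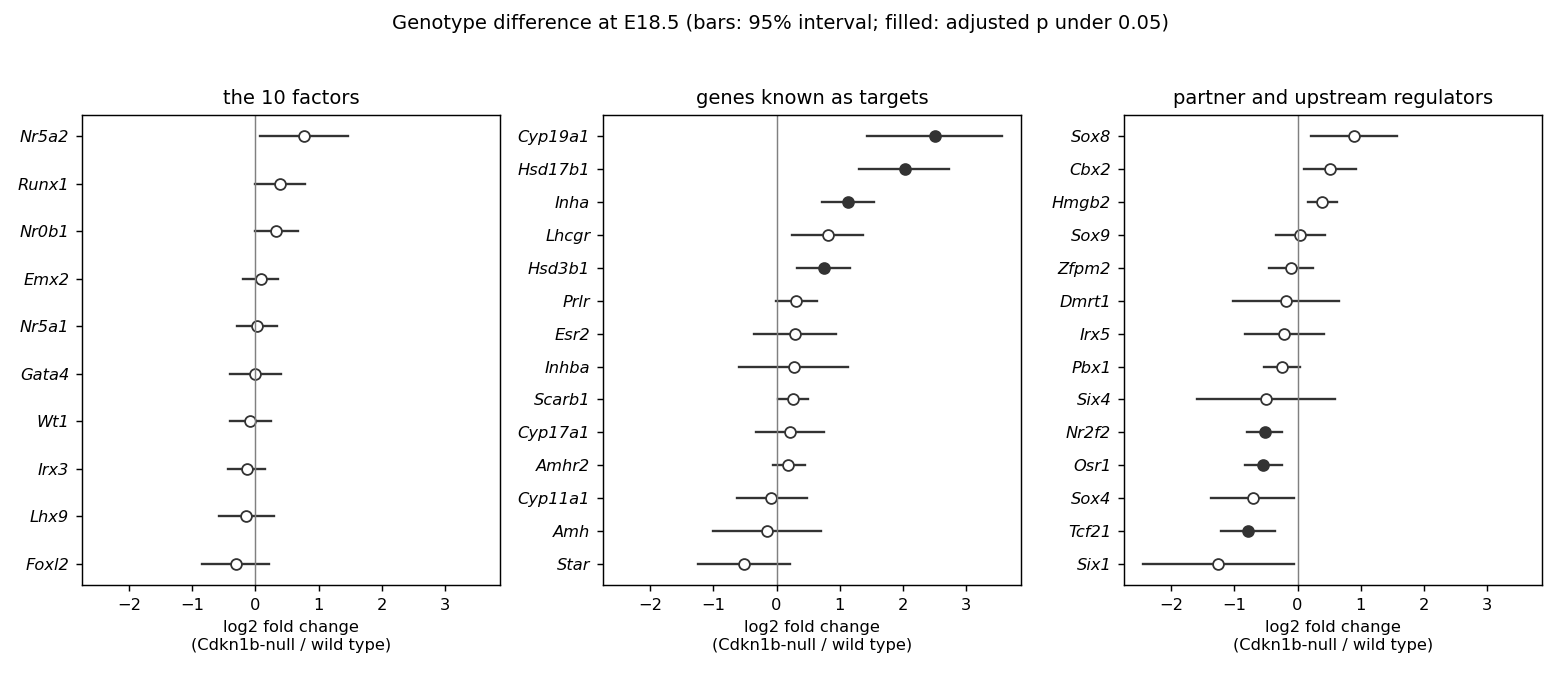
Log2 fold change of Cdkn1b-null over wild type at E18.5 with 95% intervals, for the 10 factors, 14 genes known as their targets and 14 partner or upstream regulators; filled points had an adjusted p under 0.05. The 4 filled targets lie at 0.75 to 2.51 and the 3 filled regulators at -0.78 to -0.52, and all 10 factors are open.

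At the other ages none of these pathway genes was called. Of the 15 known targets at PND8, 11 lay above wild type and 4 below it (median log2 fold change 0.29). An unadjusted p under 0.05 in edgeR was seen for 7 of the 15, where 15% of all genes tested passed. The groups did not overlap for 6, where 14.7% did not. The median of the targets was 0.34 at E13.5 (8 above, 2 below) and -0.19 at 12wk (5 above, 10 below). At E13.5 the 5 chromaffin and sympathetic markers summed to 18 to 287 CPM in wild type and 1.72 to 3.4 CPM in Cdkn1b-null. NR5A1 and NR0B1 also act in the adrenal cortex, whose 4 markers summed to 1.59 to 4.24 CPM in wild type and 1.66 to 4.62 CPM in Cdkn1b-null at that age. Of these, Cyp11b1 and Cyp11b2, which encode enzymes of the last steps of corticoid synthesis, were at or under 3 counts in every E13.5 library. Cyp21a1 was so in wild type but not in every Cdkn1b-null library, and Mc2r, the corticotropin receptor, was above it in at least 1 library of each genotype. The part of adrenal or chromaffin cells in the E13.5 values was not tested.

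Across the 29 samples each of the 10 genes had close followers, given as a description of values that share the 4 ages. By Pearson's r of log2(CPM + 1) over 12945 genes, Nr5a2 was most like Lmtk2 and Tnpo2 (0.993 each) and Foxl2 most like Ndst2 (0.988) and Irak1 (0.982). Nr5a1 was most like Tbc1d9b (0.975) and Aldh2 (0.967), Lhx9 most like B3gnt7 (0.966) and Ppp2r2b (0.963), and Runx1 most like Sgms2 (0.951) and Mansc1 (0.936). Wt1 was most like Myo5b (0.958) and Emx2 (0.943), and Emx2 most like Wt1 and Wt1os (0.906), the antisense neighbour of Wt1. Gata4 followed Tulp3 (0.943) and Fbxo10 (0.942), Irx3 followed Jaml (0.914) and Tradd (0.880), and Nr0b1 followed Mccc2 (0.897) and Naxe (0.896).

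With the group means taken out, 3 of the 45 pairs among the 10 genes had r above 0.8 over the 29 samples: Wt1 with Lhx9 (0.85), Nr5a1 with Gata4 (0.84) and Wt1 with Emx2 (0.82). Foxl2 and Nr5a2, at 0.94 before the group means were taken out, were at 0.06 after. These values share library and group, and carry no test.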

How the data were processed

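The authors deposited a table of RSEM expected counts per Ensembl gene, per the file headers. Such counts can hold fractions, because RSEM divides a read that matches several genes among them. The submitters' processing notes name Trim Galore, FastQC 0.11.5, STAR 2.5.2 and RSEM 1.3.0. The genome build, gene annotation, library kit and strandedness are not given in the sources used here, so reads of a gene and an overlapping antisense partner cannot be told apart. The header also points to 2 merged projects without saying which samples belong to which, so a project batch could not be fitted. Of values above 0, 31.4% were not whole, within 0.005. Among the 10 genes these were Emx2 and Irx3 in 29 and Runx1 in 17 libraries. Of 51912 IDs, 51633 matched a symbol.

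The counts were rounded and tested with edgeR 4.0.16 (R 4.3.3): TMM scaling, filterByExpr at a minimum count of 10 and a minimum total of 15, the robust quasi-likelihood F test and Benjamini-Hochberg adjustment over all genes tested, with a threshold of 0.05. Genotypes were compared within each age, consecutive ages within each genotype, and the interaction over all samples. The standard error is the log2 fold change over the square root of F. A floor of 3 counts allows for counting error alone, and molecular identifiers are not named in the sources used here. Groups came from the sample titles and characteristics. The fits were tested on simulated data. Gene positions and lengths are of GENCODE M21 (GRCm38), which may not be the authors' annotation, and promoter windows are RefSeq's.

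All 10 genes are named, with the 2 genes most alike by Pearson's r (mean CPM of at least 2, no predicted or clone symbols). Of the context lists up to 4 genes called in a genotype effect are named per list, with Cdkn1b. One gene of the regulator list is not reported here. The 10 genes and all lists were chosen with earlier results of these data known. The alternatives were RLE size factors, library totals only, no low-count filter, DESeq2 1.42.0, all groups in 1 fit, a block for the replicate number, and each library left out in turn.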

Additional observations from a re-analysis of the deposited data

Results flagged for a closer look

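In groups of 4 samples, genes were checked for a library standing apart from the other 3, by Dixon's ratio at its 95% level. The check took the 10 genes and the targets and regulators called at E18.5 (Cyp19a1, Hsd17b1, Inha, Hsd3b1, Nr2f2, Tcf21 and Osr1), in 85 group and gene combinations. Other context genes were not checked. Chance alone flags about 1 in 20 of them. Among the 10 genes, 3 libraries stood apart. Nr5a1 at PND8 in wild type was lowest in replicate 1, at 195 CPM, with the other 3 at 232 to 239 CPM. Nr5a2 at 12wk in wild type was highest in replicate 2, at 933 CPM, with the others at 654 to 691 CPM. Wt1 at PND8 in wild type was highest in replicate 3, at 506 CPM, with the others at 405 to 415 CPM. Among the context genes, Hsd17b1 was highest in wild-type 12wk replicate 3 (416 CPM), Nr2f2 highest in wild-type E13.5 replicate 4 (266 CPM) and lowest in wild-type 12wk replicate 2 (85.9 CPM), and Osr1 lowest in Cdkn1b-null E18.5 replicate 2 (17.4 CPM).

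The genotype difference varied with age for 5 context or marker genes by the interaction test (BH-adjusted edgeR p 0.00427 for Cdkn1b, 0.0251 for Dbh, 0.0259 for Hsd17b1, 0.0421 for Tcf21 and 0.0423 for Th). Th and Dbh encode enzymes of catecholamine synthesis and belong to the chromaffin and sympathetic markers that were higher in wild type at E13.5.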

How the results depend on the processing

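The numbers below are counts of genes called, then log2 fold changes. Over all alternatives, 496 of 530 genotype values of the 10 genes kept their side of the threshold and their sign, as did 195 of 204 values of the called Cdkn1b-null steps and 241 of 280 of the called wild-type steps, where the other 39 lost the call. As reported, edgeR called 1, 814, 62 and 2 genes for genotype at the 4 ages, 164 for the interaction and 5071 for the last Cdkn1b-null step. For the genotype effect DESeq2 called 65 genes at E13.5 and 1685 at E18.5. After birth it called 824 at PND8 and 326 at 12wk (2 of the 10 each), and 706 for the interaction (2 of the 10). All groups in 1 fit gave 59 at E13.5, 0 at PND8 (1143 at an unadjusted p under 0.05), 68 at 12wk and 4 of the 10 in the wild-type step from PND8 to 12wk. No low-count filter gave 258 at PND8 (1 of the 10) and 12 at 12wk. Library totals only gave 21 and 1 there, and split the wild-type E13.5 to E18.5 calls 3307 higher to 2104 lower, against 2748 to 2902 with TMM. That scaling moved the median of all genes from 0.01 to 0.13 in that step, to -0.21 in the next and to -0.22 in the Cdkn1b-null one. The replicate block gave 8 genes at PND8 and 10 at 12wk, and 1 of the 10 for the interaction (Emx2, edgeR adjusted p 0.00721). Deviations of same-numbered samples had r of 0.009 to 0.297, apart from PND8 replicate 3 at -0.019. Of 26 samples, 13 correlated best with their own number, each having 3 or 4 samples of the other genotype to match. These values do not settle whether the numbers mark pairs. No label states a pairing, so the reported fits held no block. Under the block the calls of Runx1 from E18.5 to PND8 in both genotypes, of Nr5a1 from PND8 to 12wk in wild type and of Hsd3b1 and Tcf21 at E18.5 were not made. Leaving out 1 library gave 0 to 1 genes at E13.5 and 246 to 1372 at E18.5. After birth it gave 0 to 147 and 0 to 3, with 2642 to 5129 for the Cdkn1b-null step from PND8 to 12wk, and 72 to 235 genes and 0 to 1 of the 10 for the interaction. Values near 0 that changed sign, none of them called, were as follows. The genotype value of Nr5a2 at E13.5 was 0.01 with library totals only, against -0.06, and that of Nr5a1 at E18.5 was 0.00, against 0.02. Gata4 at E18.5 (-0.01 as reported) was 0.01 with RLE size factors and with DESeq2, 0.04 without the filter, 0.00 with all groups and 0.02 with the block. Leaving out 1 library gave, at E13.5, -0.08 to 0.75 for Foxl2 and -0.28 to 0.12 for Nr5a2. At E18.5 it gave -0.09 to 0.10 for Nr5a1, -0.17 to 0.09 for Gata4, -0.21 to 0.04 for Wt1 and -0.28 to 0.06 for Lhx9. At PND8 it gave -0.17 to 0.05 for Wt1, -0.40 to 0.11 for Nr0b1, -0.15 to 0.12 for Emx2 and -0.07 to 0.19 for Irx3, and at 12wk -0.33 to 0.09 for Nr0b1. In the step from E13.5 to E18.5 it gave -0.01 to 0.27 for Wt1 and -0.07 to 0.28 for Emx2 in wild type and -0.05 to 0.37 for Nr0b1 in Cdkn1b-null. In the Cdkn1b-null step from PND8 to 12wk it gave -0.45 to 0.06 for Nr0b1, -0.15 to 0.13 for Nr5a2 and -0.21 to 0.03 for Gata4. The cause of these shifts was not tested. On depth, the lowest level of the 10 genes (3.36 CPM) was above the highest level that 3 counts stand for (0.213 CPM).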

Other observations

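Of the genes known as targets of these factors, 10 of the 13 tested rose and 1 fell from E13.5 to E18.5 in wild type (median log2 fold change 2.31), where 16.6% of all genes tested were called higher. From E18.5 to PND8, 10 of 15 rose and none fell (median 2.65), where 37.6% were called higher. From PND8 to 12wk, 11 of 15 rose and none fell (median 1.81), where 16.1% were. The medians over all genes tested were 0.01, 0.01 and -0.01. In Cdkn1b-null ovaries 10 of 14, 11 of 15 and 8 of 15 rose, where 15.8%, 38.9% and 14.8% of all genes tested were called higher. The counts that fell there were 0, 1 and 1, and the medians were 2.48, 2.73 and 1.76.

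Among the partner and upstream regulators, 8 of 15 fell, 2 rose and 5 did not pass from E13.5 to E18.5 in wild type (median log2 fold change -0.63), where 17.5% of all genes tested were called lower. In Cdkn1b-null ovaries 6 of 15 fell and 1 rose (median -0.54), where 14.5% were called lower. Of the 7 testis-side genes tested over that step, 3 fell and 1 rose in wild type (median -0.91), and 2 fell and 1 rose in Cdkn1b-null (median -0.54). Of the 10 ovary-side signalling genes, 6 rose and 2 fell in wild type, where 16.6% of all genes tested were called higher and 17.5% lower, and 1 rose and 1 fell in Cdkn1b-null, where 15.8% and 14.5% were. The difference between the genotypes in these counts was not tested. All these counts are edgeR quasi-likelihood calls at a Benjamini-Hochberg adjusted p under 0.05, and the steps in each genotype share no samples with those of the other. They describe lists chosen with earlier results of these data known and do not test them.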
